A study of Mus musculus with 6 samples.

Results

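Genes of the fat cell were followed in whole mouse mammary glands at involution day 2, in 3 WT and 3 Rac1-/- animals, when milk has stopped being removed and the gland begins to regress. The members are 10 genes chosen by name, namely the adipokines Adipoq, Lep, Retn and Cfd, the lipid carrier and droplet proteins Fabp4, Plin1 and Cidec, the lipases Lipe and Pnpla2 and the regulator Pparg, and every probe set annotated to exactly 1 of them was taken. Of these, 8 had a value, on 13 probe sets, out of 18194 genes on 34958 probe sets with a single gene symbol. Cfd (complement factor D, or adipsin) and Plin1 (perilipin, the coat protein of the fat droplet) were not analysed here. None of the 8 genes passed the test between genotypes, and for each of them the WT and Rac1-/- values overlapped. For all 8 the values within at least 1 genotype spanned more than the difference between the group means, and 5 of the genes were lowest in the same pair of mice, 1 from each group.

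The mammary epithelium grows within a pad of white fat. Its adipocytes lose most of their lipid during pregnancy and lactation, while the epithelium takes up and secretes fat, and they refill and expand again as the alveoli are removed in involution. Pparg is the nuclear receptor that drives and maintains the adipocyte programme, and most of the other members are direct or indirect targets of it.

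The Rac1-/- mice carry floxed Rac1 alleles (Rac1 fx/fx), a YFP reporter at the Rosa locus and the WAPiCre transgene, and the WT mice carry the same floxed alleles and reporter without Cre. The whey acidic protein promoter drives Cre in luminal epithelial cells from mid-pregnancy, so adipocytes, other stromal cells and myoepithelial cells of both groups are expected to keep Rac1. RNA of the whole gland of each mouse, without pooling, was amplified with a kit made for degraded input and read on 1 Affymetrix array. In such tissue, fewer fat cells and less RNA per fat cell cannot be told apart.

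Values are log2 intensities after quantile normalization between arrays, which gives all arrays the same distribution, and differences are Rac1-/- minus WT on that log2 scale, where 1 is a doubling. They are listed in the order Nas478, Nas483 and Nas484 for WT and Nas496, Nas497 and Nas518 for Rac1-/-. Rac1 itself, on its brightest probe set, had 9.31, 9.50 and 8.97 in the WT mice, against 9.51, 9.01 and 9.84 in the Rac1-/- mice, which overlap. A second bright probe set ran from 8.74 to 9.89 over the WT mice and had 8.77, 8.34 and 8.14 in the Rac1-/- mice, which overlap by 1 mouse, and a dim one had a Rac1-/- value at the floor. Which exons were deleted is unknown here, so these do not check the labels. The arrays differed in quality. Before normalization the interquartile range of log2 intensity was 2.85, 2.42 and 1.42 for the WT mice, against 1.98, 1.23 and 1.48 for the Rac1-/- mice. The 3' minus 5' difference of the actin control probe sets, which RNA degradation usually raises, lay between -0.17 and 0.048 in WT glands. In Rac1-/- glands it was lower, between -1.24 and -0.30. Nas484 and Nas497 also stood apart from the other 4 arrays on the first principal component of all genes, and results are therefore given without them too. Some fat cell transcripts were bright on each array. The deposited linear intensity is on a scale whose trimmed mean is 100 per array. It ran from 300 to 3260 for Adipoq, from 431 to 1249 for Retn and from 3160 to 18928 for Fabp4. On their brightest probe sets, Cidec and Pnpla2 also stayed above 100, while Lipe fell to 74.7, Pparg to 49.2 and Lep to 3.30.

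Stretches of 4 promoters are shown to set 2 groups of members whose mouse patterns differed after quantile normalization, described further on, beside their upstream sequence. Adipoq and Lep belong to the first group and Pnpla2 and Pparg to the second. Each line gives the 120 bases before the start site in RefSeq on GRCm38.p6, 5′ to 3′ on the gene's own strand, with capitals for matches of 4 motifs searched on both strands.
Adipoq, chr16:23146416-23146535 (+): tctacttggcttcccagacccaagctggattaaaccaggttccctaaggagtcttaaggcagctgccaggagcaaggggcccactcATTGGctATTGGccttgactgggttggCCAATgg
Lep, chr6:29060101-29060220 (+): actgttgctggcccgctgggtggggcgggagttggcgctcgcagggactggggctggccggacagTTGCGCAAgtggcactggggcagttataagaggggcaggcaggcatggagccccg
Pnpla2, chr7:141455068-141455187 (+): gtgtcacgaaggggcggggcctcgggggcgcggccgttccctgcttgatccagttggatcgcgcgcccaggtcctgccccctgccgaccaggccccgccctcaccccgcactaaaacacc
Pparg, the second of 3 listed start sites, chr6:115362229-115362348 (+): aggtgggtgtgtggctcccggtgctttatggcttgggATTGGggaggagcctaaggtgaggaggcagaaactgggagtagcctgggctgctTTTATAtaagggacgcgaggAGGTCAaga
The first motif, AGGTCA, is a core element of nuclear receptor sites. The C/EBP palindrome was spelled TTGCGCAA, the CCAAT box by its own name, and the TATA box as TATAAA. None of the matches overlapped another. The windows searched ran from 250 bases before to 50 bases after the start, and the table held 13 of them for 9 of the 10 members. Fabp4 was not among these. Adipoq had 3 matches of the CCAAT box, all within 34 bases of the start. Lep had the C/EBP palindrome from 55 to 48 bases before the start, a motif found in 0.183% of all 32851 promoters. AGGTCA was in 2 of the 13 member promoters, both of Pparg, against 16.3% of all promoters. The CCAAT box was in 3 of the 13 member promoters, of Adipoq and Pparg, against 37.4% of all promoters. The TATA box was in 1 of the 13, of Pparg, against 13.6%. Pnpla2, Retn, Cidec and Lipe had no match of the 4 motifs in these windows. A match of letters is not evidence of a bound site.

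The adipokines are hormones that fat cells release. Adipoq, on chromosome 16 from 23146536 to 23157968 in GRCm38.p6, encodes adiponectin, a hormone secreted by mature adipocytes. Its log2 intensity was 10.71, 10.50 and 9.18 in the WT mice, against 11.31, 9.09 and 11.41 in the Rac1-/- mice. A mouse of each group, Nas484 and Nas497, lay low, and the WT range lay within the Rac1-/- range. The means were 10.13 ± 0.83 (SD, n = 3) and 10.61 ± 1.31 (SD, n = 3), a difference of 0.47 (SE 0.74, 95% interval -1.21 to 2.16, limma adjusted p = 0.963). Without Nas484 and Nas497, a pair picked from these data, the 2 Rac1-/- values lay above the 2 WT values. The sign over all mice turned, to -0.60, when arrays were scaled to a common median instead. With that scaling the groups overlapped without this pair too. Nas478 and Nas483 had 11.84 and 11.33, against 11.82 and 10.61 in Nas496 and Nas518.

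Lep (chromosome 6, from 29060221 to 29073876) encodes leptin, which reports the size of fat stores. Its values were 4.05, 5.19 and 3.01 in the WT mice, against 6.15, 3.78 and 4.92 in the Rac1-/- mice. The highest and the lowest mouse were Nas496 and Nas484, and the groups overlapped. The means were 4.09 ± 1.09 (SD, n = 3) and 4.95 ± 1.19 (SD, n = 3), a difference of 0.87 (SE 0.76, 95% interval -0.87 to 2.60, limma adjusted p = 0.946). Lep was dim. Its deposited intensity ran from 3.30 in Nas478 to 65.2 in Nas496, and the table holds no detection calls, so its values near the floor are loosely measured. The difference was 0.26 without Nas496.

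Retn (chromosome 8, from 3655770 to 3659818) encodes resistin, an adipocyte hormone of the mouse. It had 9.53, 9.35 and 8.96 in the WT mice, against 10.03, 10.39 and 9.39 in the Rac1-/- mice. Nas496 and Nas497 lay above every WT mouse and Nas518 lay within the WT range, so the groups overlapped by 1 mouse. The means were 9.28 ± 0.29 (SD, n = 3) and 9.94 ± 0.51 (SD, n = 3), a difference of 0.66 (SE 0.47, 95% interval -0.41 to 1.73, limma adjusted p = 0.946). With arrays scaled to a common median it turned to -0.38. After quantile normalization Retn had its highest value of the 6 mice in Nas497, where Adipoq was lowest, but with a common median it had 8.88 there, against 10.61, 10.18 and 10.44 in Nas478, Nas483 and Nas496.

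**Figure D1:**
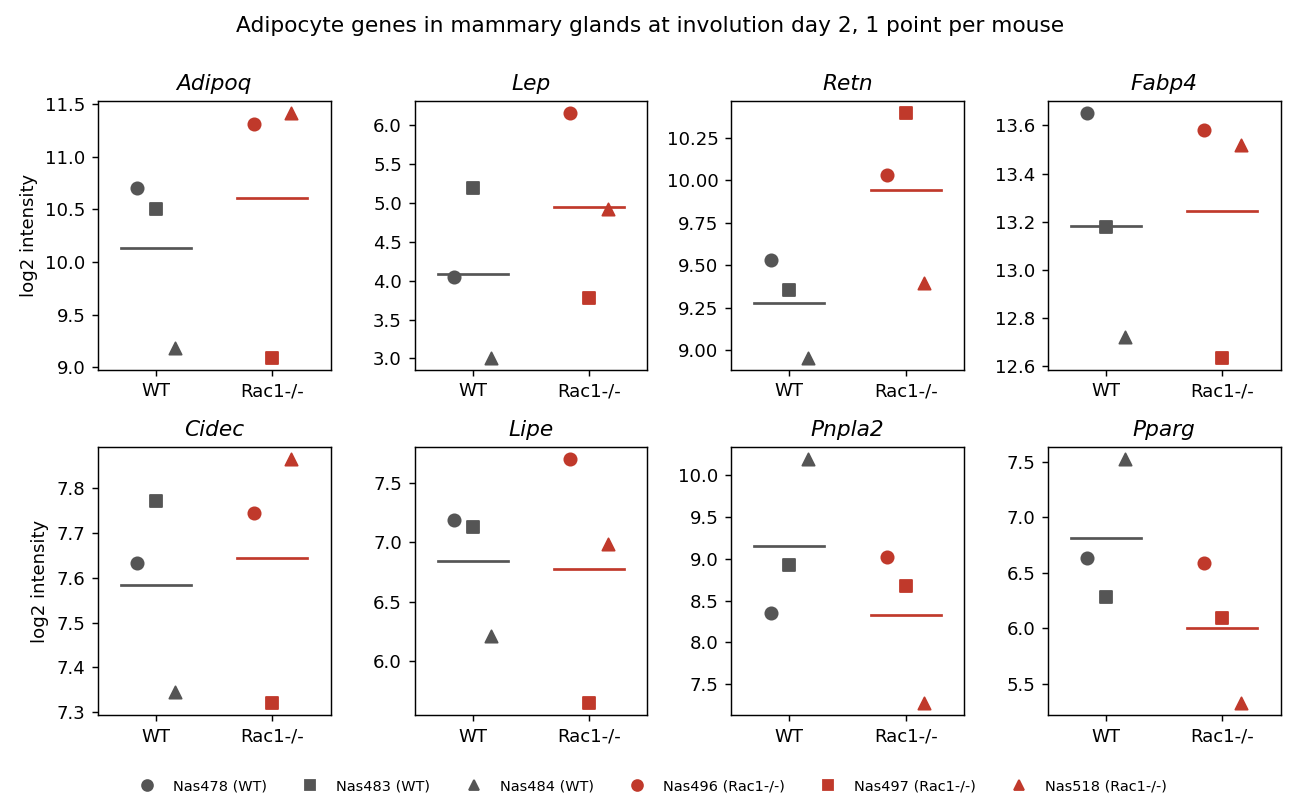
Log2 intensity (vertical axis, scaled to each gene) of the 8 measured adipocyte genes in 3 WT (grey) and 3 Rac1-/- (red) animals, with 1 point per mouse, 1 symbol per mouse and a bar at each group's mean. The groups overlap for all 8 genes, and the points of Nas484 and Nas497 lie lowest for Adipoq, Lep, Fabp4, Cidec and Lipe.

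Lipid binding and droplet genes differed little on average. Fabp4 (chromosome 3, from 10204342 to 10208616), the fatty acid carrier of fat cells that capillary endothelium and macrophages make as well, had 13.65, 13.18 and 12.72 in the WT mice, against 13.58, 12.64 and 13.52 in the Rac1-/- mice on its brightest probe set. Nas484 and Nas497 were the lowest of their groups, and the ranges lay almost on top of each other. The difference was 0.06 (SE 0.49, 95% interval -1.06 to 1.18, limma adjusted p = 0.996), and with a common median it turned to -1.16. Cidec (chromosome 6, from 113424634 to 113435760), which lets small droplets merge into the large droplet of white fat, had 7.63, 7.77 and 7.34 in the WT mice, against 7.74, 7.32 and 7.87 in the Rac1-/- mice. Its values spanned the least of the 8 genes, 0.55 over all mice, and again Nas484 and Nas497 lay lowest. The difference was 0.060 (SE 0.43, 95% interval -0.92 to 1.04, limma adjusted p = 0.996), and it turned to -0.56 with a common median.

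The lipases act in sequence. Pnpla2, or ATGL, takes the first fatty acid from a triglyceride and Lipe, or hormone-sensitive lipase, the next. Lipe (chromosome 7, from 25379527 to 25398486) had 7.19, 7.13 and 6.21 in the WT mice, against 7.70, 5.65 and 6.99 in the Rac1-/- mice. Nas484 and Nas497 were lowest here too. The difference was -0.063 (SE 0.62, 95% interval -1.48 to 1.35, limma adjusted p = 0.996), with a sign that changed under 8 of 18 other settings. Several of the 18 left the values of this gene as they were and returned the same estimate.

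Pnpla2 (chromosome 7, from 141455188 to 141460743) had 8.35, 8.92 and 10.20 in the WT mice, against 9.02, 8.67 and 7.27 in the Rac1-/- mice. Here Nas484 was highest and Nas518 lowest, and the other 4 mice lay between 8.35 and 9.02. The means were 9.16 ± 0.95 (SD, n = 3) and 8.32 ± 0.93 (SD, n = 3), a difference of -0.84 (SE 0.66, 95% interval -2.35 to 0.68, limma adjusted p = 0.946). It was -0.31 without Nas518. Pparg (chromosome 6, from 115360879 to 115490404) had 6.63, 6.29 and 7.53 in the WT mice, against 6.59, 6.10 and 5.32 in the Rac1-/- mice. The same mice were at the ends as for Pnpla2, and the groups overlapped. The SD was 0.64 in each group (n = 3), and the difference was -0.81 (SE 0.54, 95% interval -2.05 to 0.42, limma adjusted p = 0.946), which was -0.46 at the nearest to 0 with a mouse left out. Pnpla2, Pparg and Lep kept their sign under every other setting that gave a value, though some settings left these estimates unchanged. The other, dim probe set of Pnpla2 had a difference of 0.12.

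Over the members, 0 of 8 were called at an adjusted p under 0.05, as were 0% of the 18194 genes. At an unadjusted p under 0.05, 0 of 8 were higher, against 2.23% of all genes, and 0 were lower, against 1.82%. For 0 of 8 the groups did not overlap, against 9.62% of all genes. The smallest unadjusted p among them was 0.170, for Pparg. The estimates lay above 0 for 5 and below 0 for 3, with a median of 0.060, the same as the median of all genes at 0.060. With a common median, that median was -0.58 for the members and -0.12 for all genes, so the members' direction on balance depends on the scaling. With the actin difference of the arrays as a covariate the members' median was 0.61, and no member was called there either. The actin values of the 2 genotypes did not overlap, so that fit cannot well tell genotype and actin difference apart. With standard errors from 0.43 to 0.76, the 95% interval of Adipoq or Lep takes in differences of more than 2 in 1 direction. These p-values therefore do not show that the genotypes were alike. With 3 mice per group, the smallest p that an exact two-sided permutation test allows is 0.1.

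**Figure D2:**
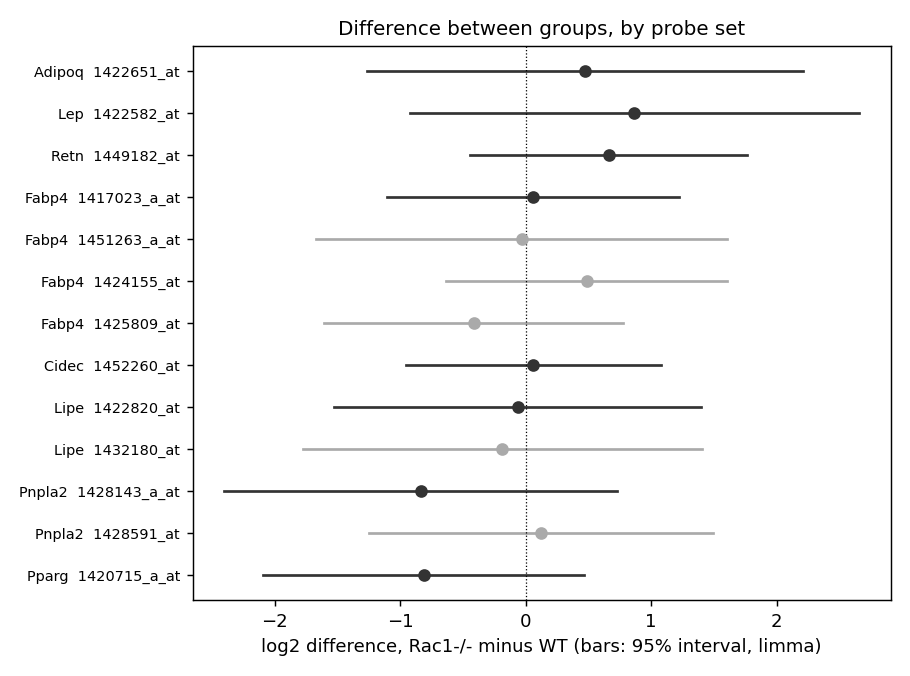
Log2 difference between Rac1-/- and WT glands (horizontal axis) for each of the 13 probe sets of the members, with 95% intervals from limma fitted over all single-gene probe sets and n = 3 mice per group. Black marks the probe set used for the gene and grey the others, and each interval includes 0.

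Most members shared their low mice. Within WT glands Adipoq spanned 1.52, Lep 2.18 and Lipe 0.98, and within Rac1-/- glands they spanned 2.32, 2.38 and 2.06. In Nas484, compared with the mean of the other 2 WT mice, Adipoq was -1.42, Lep -1.61, Fabp4 -0.69, Cidec -0.36 and Lipe -0.95. In Nas497, compared with the other 2 Rac1-/- mice, the same genes were -2.27, -1.76, -0.91, -0.49 and -1.70. These 5 of the 8 members thus had their 2 lowest values in Nas484 and Nas497, which was so for 14.8% of all genes, and the 2 highest values lay there for 0 members and 19.8% of all genes. With a common median it held for 4 members, Lep being lowest in Nas478, and for 19.6% of all genes. The pattern was noticed in these data and is given as a description. The arrays of Nas484 and Nas497 also had the narrowest and the second narrowest interquartile range, 1.23 in Nas497 and 1.42 in Nas484, with Nas518 close at 1.48. The actin difference was lowest in Nas497 but lay at -0.17 in Nas484, nearer to 0 than in Nas496 and Nas518. The part of these measures in the low values was not tested.

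Across the 6 mice, Pearson's r with Adipoq was 0.95 for Cidec, 0.94 for Fabp4, 0.90 for Lipe and 0.81 for Lep, so these 5 genes went up and down together after quantile normalization. Pnpla2 and Pparg formed a pair of their own with r of 0.92, and Pnpla2 had r of -0.62 with Adipoq. Retn had r between -0.35 and 0.30 with each other member. These groupings depend in part on the scaling. With a common median, r with Adipoq was still 0.94 for Fabp4 and Cidec and 0.98 for Lipe, and Pnpla2 and Pparg had 0.87, but Lep had 0.19 with Adipoq, Retn had 0.85 and Pnpla2 turned to 0.39. These are descriptions over 6 arrays that share their array quality and normalization. After quantile normalization, the genes whose values were most like the mean profile of the members, among 9090 genes above the median level, were Rps27l with r of 0.988, Idh3b and Cr1l with 0.984, Rpl22l1 with 0.983 and Nckap1l with 0.982 over the 6 mice. None of these 5 is on the lists of fat cell genes, and their differences between genotypes lay between -0.068 and 0.091.

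**Figure D3:**
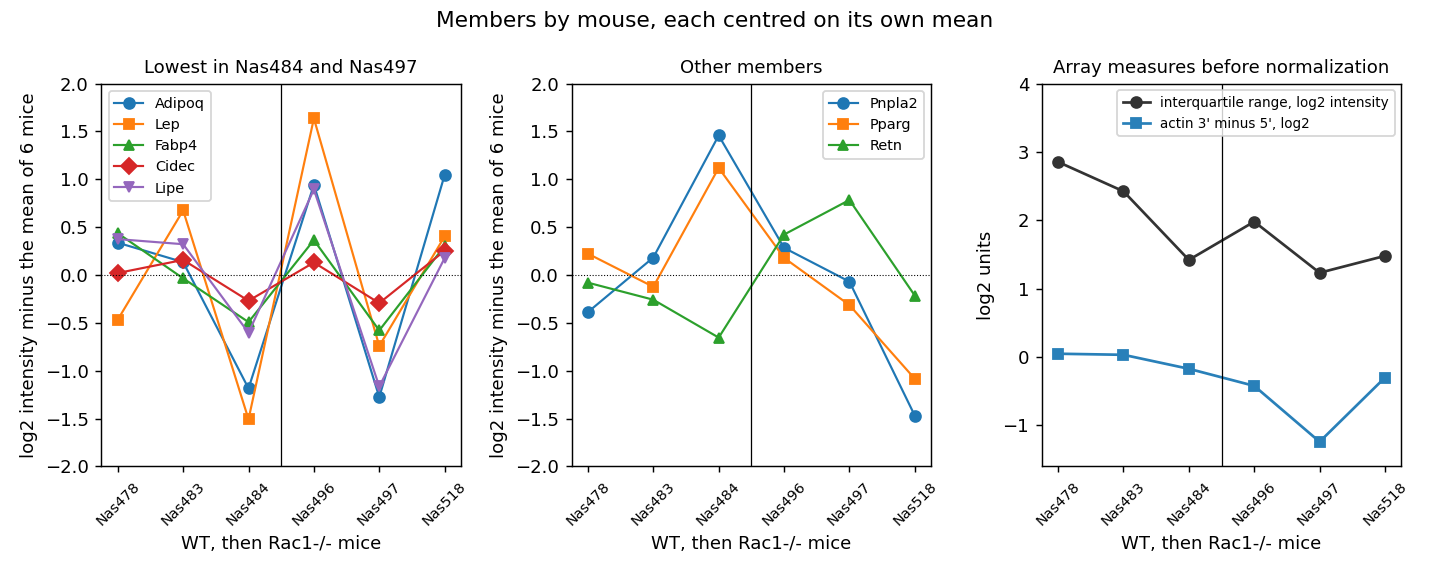
Log2 intensity of each measured member minus its mean over 6 mice, for the 5 genes lowest in Nas484 and Nas497 (left) and the other 3 (middle), and the interquartile range and actin 3' minus 5' difference of each array (right, log2 units). Mice stand along the horizontal axis, lines only join points of 1 gene or measure, and Pnpla2 and Pparg peak in Nas484, where Adipoq is 1.42 below the other WT mice.

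Of the members, 3 had more than 1 probe set, and these did not always tell the same story. For Fabp4, the second brightest had 12.80, 12.83 and 11.50 in the WT mice, against 13.36, 11.02 and 12.66 in the Rac1-/- mice, low in the same pair of mice and with a difference of -0.031 (SE 0.71). The next in brightness had 8.03, 7.94 and 7.55 in the WT mice, against 7.74, 8.38 and 8.86 in the Rac1-/- mice, where Nas497 and Nas518 lay above every WT mouse, with a difference of 0.49 (SE 0.49). The last had 7.66, 7.39 and 6.42 in the WT mice, against 6.43, 6.63 and 7.16 in the Rac1-/- mice, with a difference of -0.42 (SE 0.52). Nas484 was the lowest WT mouse on all 4 probe sets of Fabp4, while Nas497 was low on the brighter pair and between the other Rac1-/- mice on the dimmer pair. For Lipe, the other probe set ran the opposite way across mice, with 6.24, 6.03 and 6.98 in the WT mice, against 5.14, 7.61 and 5.94 in the Rac1-/- mice. It was highest in Nas497 and Nas484, where the probe set used for the gene was lowest, and its difference between genotypes was -0.19 (SE 0.69). For Pnpla2, the other probe set was dim, with 4.35, 6.23 and 4.83 in the WT mice, against 5.67, 4.96 and 5.13 in the Rac1-/- mice and a difference of 0.12 (SE 0.59). It did not show the high Nas484 and low Nas518 of the brighter one. None of the 13 probe sets had groups that did not overlap.

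**Figure D4:**
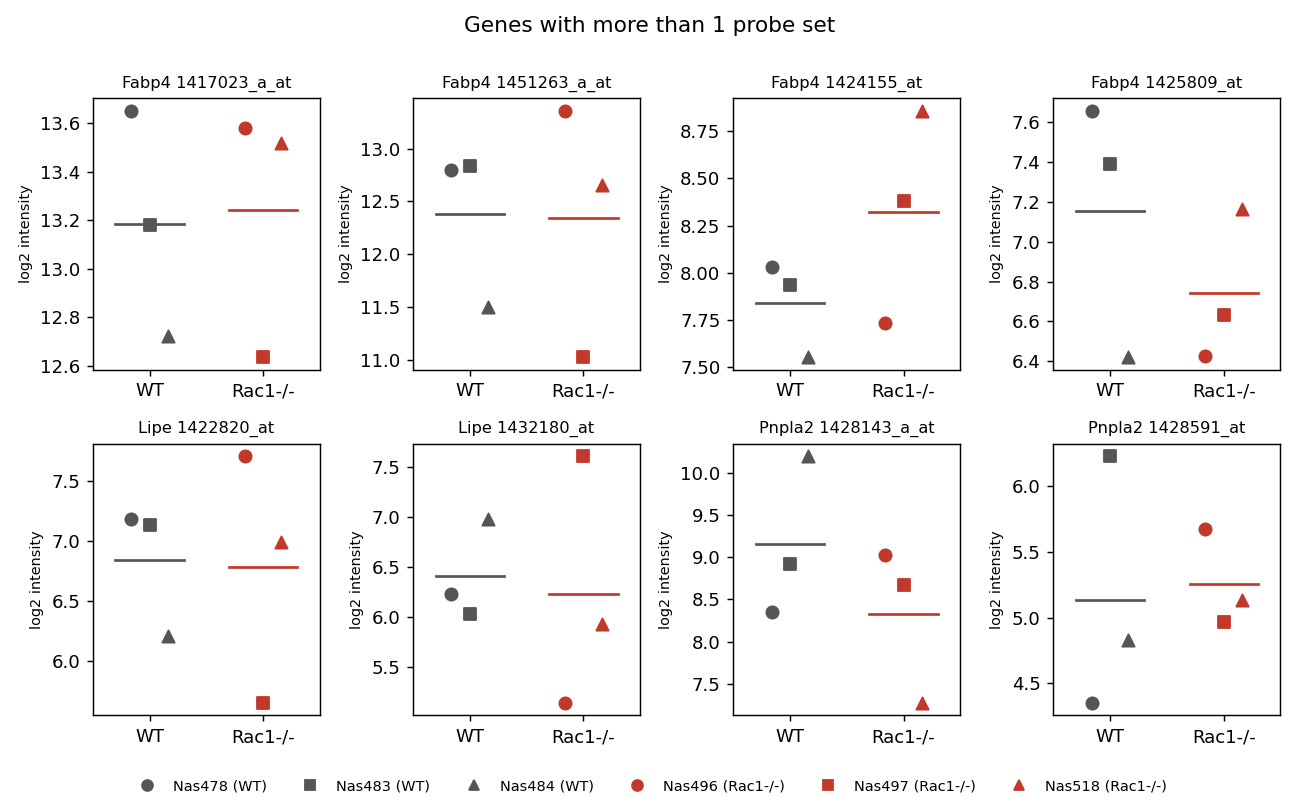
Log2 intensity (vertical axis, scaled to each probe set) of the 4 probe sets of Fabp4, the 2 of Lipe and the 2 of Pnpla2, with 1 point per mouse and a bar at the mean of 3 WT (grey) or 3 Rac1-/- (red) mice. Nas497 is lowest on the first probe set of Lipe, at 5.65, and highest on the other, at 7.61.

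In 3 further lists, of other fat cell genes, of lipid breakdown and of fat cell formation, most estimates were below 0, as were 46.1% of all genes, and limma called no gene at an adjusted p under 0.05. The counts that follow stand against 1.82% of all genes lower and 2.23% higher at an unadjusted p under 0.05, and 9.62% without overlap. Of 18 further adipocyte genes, the estimates of 14 were below 0 and of 4 above it (median -0.31). At an unadjusted p under 0.05, 1 was lower and 0 higher, and the groups did not overlap for 3. Orm1, an acute phase glycoprotein made by fat and other tissues, had 12.48, 12.25 and 14.39 in the WT mice, against 10.74, 10.58 and 11.15 in the Rac1-/- mice, so the groups did not overlap. Its difference was -2.21 (SE 0.63, limma adjusted p = 0.946). This was -1.42 without Nas484 and Nas497. Cav2, a caveolin of the fat cell membrane and of endothelium, had -0.99 (SE 0.71) with overlapping groups, but 0.078 without Nas484 and Nas497, and its other probe set had 0.79. Acvr1c and Pde3b, named after their values were seen, were the other genes without overlap, with 0.48 and 0.42, and Pde3b was -0.15 with a common median. The median of this list was -0.10 without Nas484 and Nas497 and -0.97 with a common median.

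Of 11 partners of the lipases and related genes of lipolysis, the estimates of 9 were below 0 and of 2 above it (median -0.68), and 0 had an unadjusted p under 0.05. G0s2, an inhibitor of Pnpla2, had 8.41, 8.37 and 9.37 in the WT mice, against 8.21, 7.64 and 6.45 in the Rac1-/- mice. The groups did not overlap, by a small margin, and the difference was -1.28 (SE 0.58, limma adjusted p = 0.946). Abhd5, the coactivator of Pnpla2, had 10.41, 10.03 and 8.89 in the WT mice, against 9.01, 8.18 and 9.10 in the Rac1-/- mice, which overlapped. Its difference was -1.01 (SE 0.55, limma adjusted p = 0.946), and -1.29 on its second probe set. The inhibitor, like Pnpla2 itself, was highest in Nas484 and lowest in Nas518.

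Of 13 regulators of fat cell formation other than Pparg, the estimates of 11 were below 0 and of 2 above it (median -0.27). At an unadjusted p under 0.05, 3 were lower and 0 higher, and the groups did not overlap for 5. Klf15, a transcription factor of fat and of fasting and glucocorticoid responses, had 6.32, 6.39 and 5.32 in the WT mice, against 2.76, 2.66 and 1.89 in the Rac1-/- mice. All Rac1-/- values lay well below all WT values, with a difference of -3.57 (SE 0.51, limma adjusted p = 0.575). The Rac1-/- values are dim, and the difference was -4.03 without Nas484 and Nas497. Srebf1, which turns on fatty acid synthesis in fat and in milk-secreting epithelium alike, had 8.49, 9.37 and 8.78 in the WT mice, against 8.27, 6.53 and 5.40 in the Rac1-/- mice, without overlap, and a difference of -2.15 (SE 0.72, limma adjusted p = 0.946). Zfp423, a factor of fat cell precursors named here after its values were seen, had -2.01 (SE 0.70), again without overlap, or -1.27 without Nas484 and Nas497. The other genes without overlap, also named after their values were seen, were Ppargc1b with -0.91 and Klf5 with 0.83, or 0.11 with a common median. Of 5 adipokine receptors, the estimates of 4 were below 0 and of 1 above it, and their median of -0.13 was 0.065 without Nas484 and Nas497. Adipor2, a receptor of adiponectin, had -0.82 (SE 0.55), and Lepr, the leptin receptor, had 0.68 (SE 0.59) on its brightest probe set and -0.26 on the next.

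Markers of the other cells of the gland were set beside the members, since Fabp4, Pparg, Srebf1 and others are not made by fat cells alone. No gene of the lists was at the floor in any mouse. The mean log2 intensity of the 8 members was 8.47, 8.54 and 8.14 in the WT mice, against 9.02, 7.95 and 8.34 in the Rac1-/- mice, highest in Nas496 and lowest in Nas497. Over 12 preadipocyte and fibroblast genes it was 8.10, 8.52 and 7.94 in the WT mice, against 8.79, 7.58 and 8.27 in the Rac1-/- mice, which were highest and lowest in the same mice. Their median difference was 0.12, with 8 above and 4 below 0, and -0.77 with a common median. Over 11 macrophage genes the mean lay between 7.65 and 8.11 in WT and between 7.85 and 8.60 in Rac1-/- glands, with 8 above and 3 below 0. Their median difference was 0.59, or -0.10 with a common median. Over 8 endothelial genes it lay between 6.32 and 7.16 in WT, highest in Nas484, and between 6.29 and 6.69 in Rac1-/- glands, with a median difference of -0.098, or 0.16 without Nas484 and Nas497.

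The 15 genes of luminal secretory epithelium had means from 11.51 to 11.67 in WT and from 10.79 to 11.30 in Rac1-/- glands, and the groups did not overlap. Their median difference was -0.31, or -1.64 with a common median, with 10 below and 5 above 0, and 5 were lower at an unadjusted p under 0.05. Wap, a whey protein of milk, had -2.77 (SE 0.45, limma adjusted p = 0.653), and Lalba, which makes lactose with its partner enzyme, had -2.07 (SE 0.52, limma adjusted p = 0.946). The other 3 were Xdh with -1.98, Elf5 with -1.45 and Btn1a1 with -1.58. The keratin genes Krt18 and Krt8 and the tight junction gene Cldn3, which mark luminal cells whether or not they secrete milk, had 0.90, 0.87 and 0.93, without overlap for Krt18 and Cldn3, but turned to -0.23, -0.071 and -0.11 with a common median. Of the same list, Krt19 had -0.19, Epcam -0.14, Cldn7 0.035 and Cdh1 0.27, or -1.13, -1.29, -0.70 and -0.75 with a common median. The keratin, junction and adhesion genes of the list thus had no common direction after quantile normalization. All genes of this list named here, except Wap and Lalba, were named after their values were seen. Srebf1 and Cidea are also expressed by this epithelium. The part of the epithelial cells in the lower values of the lists of fat cell regulators was not tested. The mean over all genes was higher in Nas484 and Nas497, at 6.42 and 6.48, than in the other mice, at 6.23 to 6.35. Quantile normalization gives all arrays the same distribution, so this mean is no reference for the low values of the 5 members there. Whether those low values came from the arrays was not tested. The mean levels of the macrophage list (7.65 and 7.85) and of the preadipocyte and fibroblast list (7.94 and 7.58) were also lowest in Nas484 and Nas497. Low values there were thus not particular to the fat cell genes. Nor did all fat cell genes share them. The mean of the 18 further adipocyte genes was lowest in Nas497, at 7.68, but highest in Nas484, at 8.57.

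**Figure D5:**
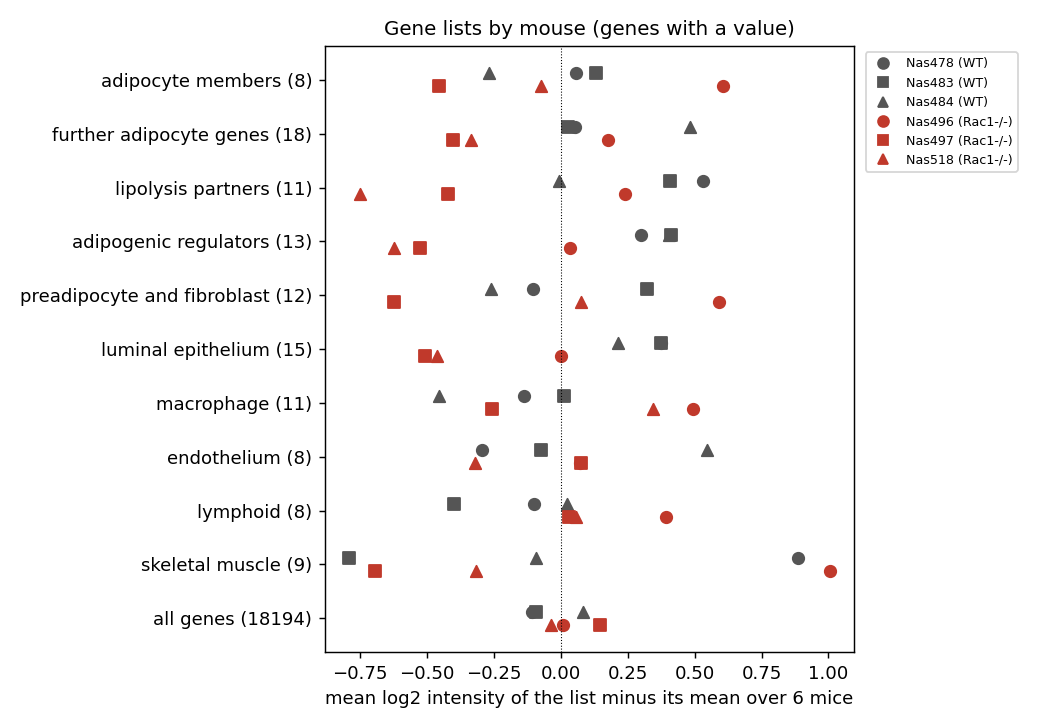
Mean log2 intensity of each gene list minus its own mean over 6 mice (horizontal axis), with 1 symbol per mouse, WT in grey and Rac1-/- in red, and the number of measured genes in brackets. The members overlap between genotypes, from 7.95 to 9.02 in Rac1-/- and from 8.14 to 8.54 in WT before centring, while the luminal epithelial genes of all Rac1-/- mice lie below those of all WT mice.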

How the data were processed

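The authors amplified the RNA, hybridized 1 array per mouse and deposited 1 linear intensity per probe set (45101), with values that on each array have a trimmed mean of 100 (without the top and bottom 2%). The summary method is not given in the sources used here. Intensities were quantile normalized, raised to a floor of 1 and log2 transformed in R 4.3.3. Each of 18194 genes took its single-symbol probe set with the highest mean, by the platform annotation, without a filter on dim genes. Groups (n = 3 mice each) were compared with lmFit and eBayes of limma 3.58.1 and Benjamini-Hochberg adjustment over all genes at 0.05, and estimates for further probe sets come from the same model over all 34958 of them. The procedure was tested on simulated data drawn independently for each gene and array. These held no effect shared by the genes of an array, so the test does not cover arrays that differ in quality. Precision is limited by the number of arrays, of which 0 pairs were identical. Symbols, positions and promoters are from RefSeq (GRCm38.p6).

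Members and lists were chosen with earlier results of these data known. Named are all members, the 2 genes of every other list with the smallest p, and the 5 genes most correlated with the members. Exceptions are said in place. Alternatives changed the scaling, the choice and filter of probe sets, the floor, the prior variance, array weights, a covariate, or left out mice.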

Additional observations from a re-analysis of the deposited data

How the results depend on the processing

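No member was called under any of 18 alternatives (smallest limma adjusted p 0.70). Of these, 2 (no normalization between arrays and the interquartile range as covariate) were chosen after seeing the data. The pair Nas484 and Nas497, left out together in another, was also picked from the arrays of these data. The members' median of 0.060 was -0.58 with a common median, 0.61 with the actin difference as covariate, 0.61 with the interquartile range as covariate, and -0.12 to 0.40 with 1 mouse left out. The signs of Lep, Pnpla2 and Pparg held under every alternative that gave a value, though some alternatives left these estimates unchanged. On its own, the dim probe set of Pnpla2 had a difference of 0.12. With a common median, Adipoq turned to -0.60, Retn to -0.38, Fabp4 to -1.16 and Cidec to -0.56. Without normalization Adipoq was -0.12, Fabp4 -0.69, Cidec -0.085 and Lipe 0.085. Lipe also turned to 0.0047 with array weights, 1.17 with the actin covariate, 0.68 with the interquartile range, 0.19 without Nas484 and Nas497, and 0.11, 0.083 and 0.50 without Nas478, Nas483 and Nas497. Its lowest was -0.53 and its highest 0.50 with 1 mouse left out. Fabp4 ran from -0.17 to 0.36 with 1 mouse left out, with -0.17 without Nas484, -0.11 without Nas496 and -0.077 without Nas518, and Cidec from -0.059 without Nas484 to 0.22, with -0.051 without Nas518. Adipoq ran from 0.0012 to 1.23 with 1 mouse left out, and was 2.21 with the actin covariate, whose values did not overlap between genotypes. The cause of these changes was not tested. No paired analysis was possible because the labels give nothing that pairs a WT mouse with a Rac1-/- mouse. Lep and the Rac1-/- values of Klf15 lie where intensity over background is low, and the table holds no detection calls.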

Other observations

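Genes of brown and beige fat showed no common direction, with 6 of 9 above and 3 below 0 and a median of 0.095, or -0.051 without Nas484 and Nas497. Cidea, a droplet protein of brown fat that milk-secreting epithelium also makes, had 9.03, 9.06 and 9.24 in the WT mice, against 7.46, 6.97 and 5.39 in the Rac1-/- mice, so the groups did not overlap. The difference was -2.50 (SE 0.59, limma adjusted p = 0.946). Dio2, which activates thyroid hormone in brown fat and other tissues, had 6.50, 5.47 and 7.46 in the WT mice, against 7.49, 8.84 and 7.58 in the Rac1-/- mice, where the groups did not overlap by a narrow margin. Its difference was 1.49 (SE 0.64, limma adjusted p = 0.946).

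Among the other named markers no gene passed limma's test. Dlk1, a surface protein of fat cell precursors, had a difference of 0.80 and Fap, a protease of fibroblasts, -0.53. The macrophage genes Cd14 and Ctss had -0.95 and 1.28, or -2.02 and 0.21 with a common median. The endothelial genes Tie1 and Cdh5 had -0.59 and -0.50, and the other probe set of Cdh5 had -0.98, without overlap. The 7 myoepithelial genes (4 above and 3 below 0) had a median of 0.021, or -0.58 with a common median, and Acta2 and Krt14 had 1.24 and 1.25, or 0.23 and 0.68 with a common median. The 8 lymphoid genes (5 above and 3 below 0) had a median of 0.27, and Ccr7 and Cd8a had 1.19 and 0.86. The other probe sets of Cd8a ran from -0.93 to 0.58. The 9 skeletal muscle genes (5 above and 4 below 0) had a median of 0.027, or -0.29 with a common median, and Myl1 and Actn3 had 0.93 and 0.68, where Myl1 was 0.13 with a common median. The mean log2 intensity of these muscle genes was 7.78 in the WT mouse Nas478 and 7.90 in the Rac1-/- mouse Nas496, against 6.10 to 6.80 in the other 4 mice.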
